A study of Macaca mulatta with 32 samples.

Results

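Circular RNAs (circRNAs) of 6 genes that serve signalling or cell fate in cerebellar Purkinje cells were described: ITPR1, RORA, PLCB4, INPP5A, CACNA1G and DAB1. All rows of the deposited circRNA table that carry 1 of these symbols were taken, which gave 33 circRNAs of the 52828 in the table. ITPR1 and DAB1 had 8 each, PLCB4 had 6, INPP5A had 5, RORA had 4 and CACNA1G had 2. The table covers 32 libraries of rhesus macaque brain from 8 regions: prefrontal (PFC), posterior cingulate (PCC), temporal (TC), parietal (PC) and occipital (OC) cortex, hippocampal CA1, dentate gyrus (DG) and cerebellar cortex (CB). Every region was sampled in the same 4 pools of 2 animals, which combine an age of 10 or 20 years with a sex and are called 10F, 10M, 20F and 20M (F, females and M, males). The 8 animals carried no treatment or altered allele by the labels, and all RNA was treated with RNase R, which digests linear RNA. Each library is therefore an average over 2 animals. The p-values measure the spread between libraries, and libraries of a pool share animals. The main fits for age and sex count the regions of a pool as separate libraries, although only 4 pools carry these labels.

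A circRNA forms when the end of a downstream exon is joined back to the start of an upstream exon, and it is counted by reads across that junction. Purkinje cells are the output neurons of the cerebellar cortex. In them glutamate acts through Gq proteins on phospholipase C beta 4 (PLCB4). That enzyme makes inositol trisphosphate, which opens the calcium channel of the endoplasmic reticulum encoded by ITPR1, and the phosphatase INPP5A removes inositol trisphosphate again. CACNA1G encodes a T-type calcium channel of the plasma membrane. RORA is a nuclear receptor needed for Purkinje cell maturation, and DAB1 is the adaptor of reelin signalling, which positions these neurons. All 6 genes are also used by other neurons, so a circRNA of one of them in bulk tissue does not name its cell.

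The deposited values, in a unit called TPM, were whole numbers of back-splice reads multiplied by a constant for each library. The libraries held 18813 to 894932 back-splice reads (median 179118). A circRNA was listed in a library from 2 reads on, so the smallest value that could be listed was 37.4 TPM in CB_10F, 3.01 in CB_10M, 2.17 in CB_20F and 4.4 in CB_20M. A value of 0 in CB_10F thus leaves room for levels that would be listed in any other library. In pools 10F, 10M, 20F and 20M the smallest value was 6.09, 7.28, 8.37 and 0.58 TPM in CA1. In DG it was 12.03, 9.09, 4.11 and 1.76 TPM, and in neocortex it ran from 0.61 TPM (PCC_20F) to 10.29 TPM (TC_10M). In CA1_20M, DG_20M, PC_10M, PCC_20F and PFC_20F the share of clean reads stood apart in the sequencing records of the study. These 5 libraries held 38.8% of all back-splice reads and 95.1% of the 2002 circRNAs that had at least 30 reads in 1 library and none elsewhere. The CB and hippocampal differences printed for totals of single member genes are given with and without them.

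The tissue labels were compared with the circRNAs of marker genes. Of the 7 Purkinje cell markers reported here, CA8 and FOXP2 had circRNAs in the table, and PCP2, PCP4, CALB1, PVALB and SLC1A6 had none. Their summed level was 0 to 37.4 TPM in the CB libraries and 0 to 46 TPM elsewhere, so the groups overlapped. Of 11 granule cell markers, 4 had a circRNA, with sums of 0 to 28.6 TPM in CB and 0 to 4.32 TPM outside. The 7 forebrain excitatory neuron markers, of which 3 had a circRNA, summed to 0 in all CB libraries and 0 to 184 TPM outside. CAMK2A alone reached 184 TPM. The 6 astrocyte and Bergmann glia markers (4 with a circRNA) summed to 0 in CB and 0 to 34.5 TPM outside. For the 5 oligodendrocyte markers (4 with a circRNA) the sums were 0 to 9.02 TPM in CB and 0 to 91 TPM outside. In bulk tissue, fewer cells of a type and less RNA per cell cannot be told apart.

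The 33 circRNAs held 6209 back-splice reads in all, 0.087% of the 7159279 in the table. INPP5A alone had 4983 of them, or 80.3%, and ranked 209 of 8047 host genes. PLCB4 followed with 416, DAB1 with 380, ITPR1 with 250, RORA with 165 and CACNA1G with 15. A filter on sporadic circRNAs, described in the methods of the study, kept 14 of the 33 (42.4%), against 32.3% of all circRNAs. Of the 33, 16 (48.5%) were seen in 1 library, against 55.1% of all circRNAs. Within each gene the circRNAs are numbered here by reads, so that circINPP5A-1 has the most reads of its gene.

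Back-splice positions are given as in the table, whose genome build is not given in the sources used here. Of the 33 circRNAs, 31 were annotated as exonic, and circPLCB4-1 and circDAB1-7 as intronic. The distance between the back-splice sites ran from 188 bases in circDAB1-3 to 156514 bases in circDAB1-2. Its median over the 31 exonic members was 15335 bases, against 6193 over all exonic circRNAs, and 5 members (15.2%) spanned at least 50 kb, against 10.3% of all. Many members shared a splice site. On chromosome 9, circINPP5A-1 (132358593 to 132366012), circINPP5A-2 (132276278 to 132366012) and circINPP5A-3 (132316268 to 132366012) ended at the same position, and circINPP5A-2 and circINPP5A-4 (132276278 to 132320979) began at the same position.

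The DAB1 circRNAs met at a short stretch of chromosome 1. There circDAB1-2, circDAB1-5 and circDAB1-7 began at 60002584, and circDAB1-6 and circDAB1-8 ended at 60002682, so that the 99 bases between these positions lay in all 5. In RORA, on chromosome 7, circRORA-4 (38919194 to 38931560) overlapped circRORA-3 (38931165 to 38951412) by 396 bases, and circRORA-3 overlapped circRORA-2 (38951327 to 39100390) by 86 bases. In PLCB4, on chromosome 10, circPLCB4-4 and circPLCB4-6 began at 42767684, and circPLCB4-4 and circPLCB4-5 ended at 42770076. These shared ends describe alternative back-splicing from a few sites, and reads of such circRNAs are told apart only by their other junction end.

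**Figure D1:**
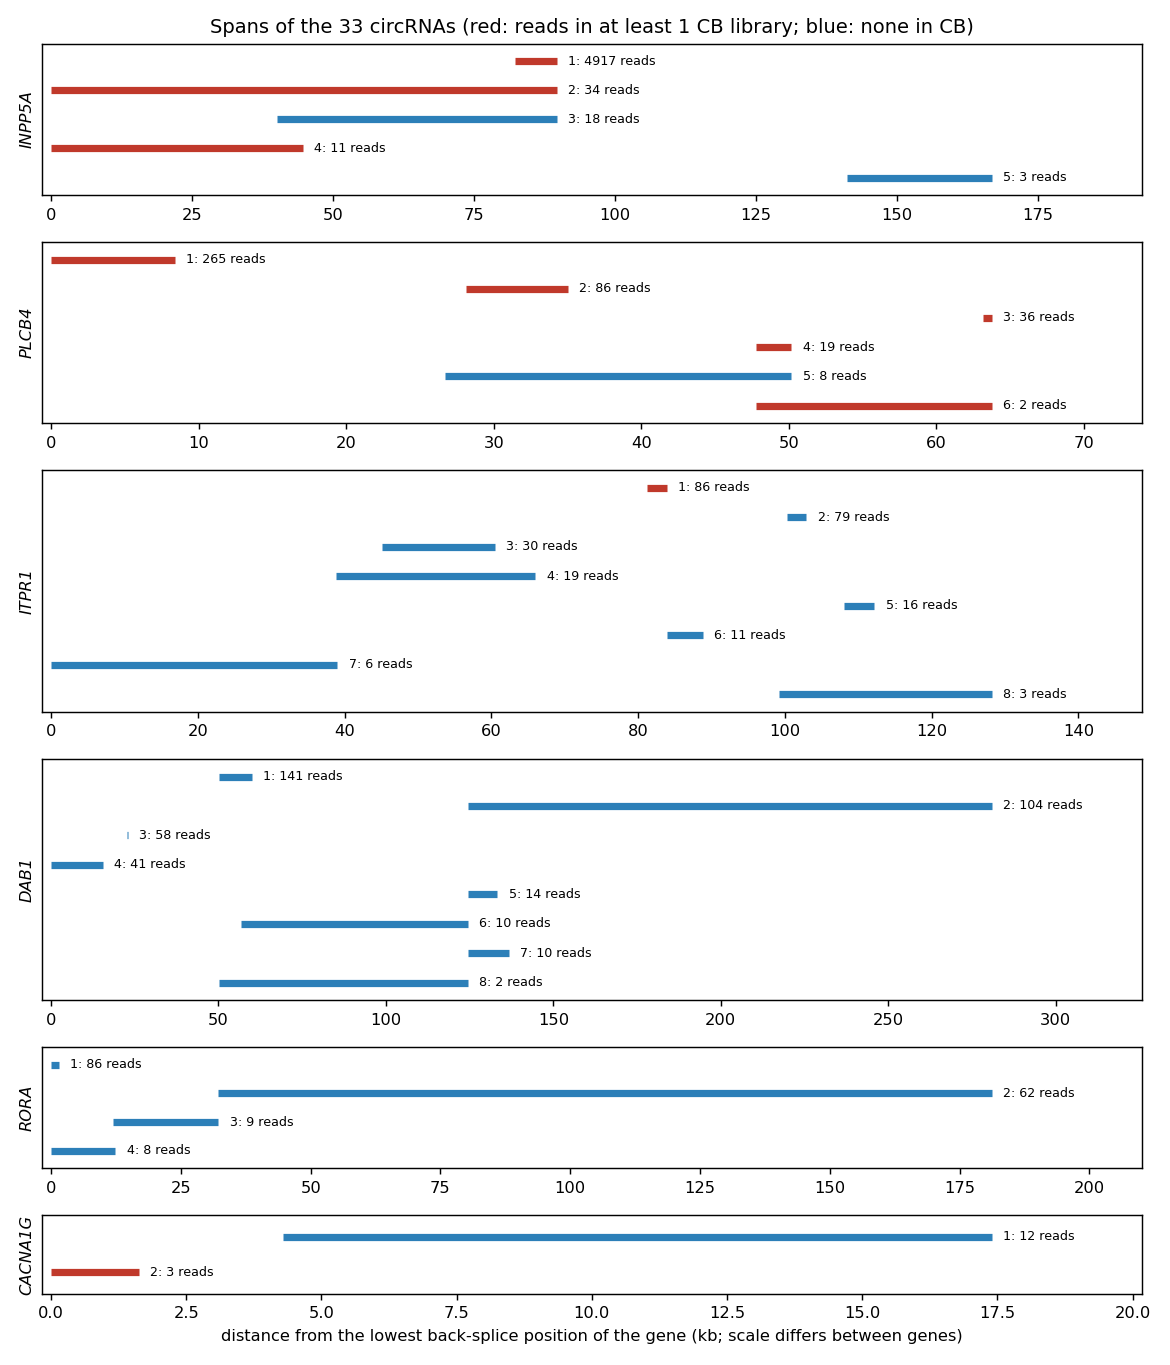
Spans of the 33 circRNAs, 1 panel per gene, as distance in kb from the gene's lowest back-splice position; each bar is 1 circRNA with its number and its back-splice reads over 32 libraries. Red bars had reads in at least 1 CB library (10 of 33), and no DAB1 or RORA bar is red.

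INPP5A, the phosphatase that ends the inositol trisphosphate signal, had its highest circRNA level in CB. The summed level of its 5 circRNAs in CB was 786 TPM in 10F, 592 in 10M, 450 in 20F and 343 in 20M. In the other 28 libraries the lowest value was 0, the median 121 and the highest 312 TPM. On the deposited scale all 4 CB libraries thus lay above every other library, as was true of 0.553% of 5425 host genes with at least 30 back-splice reads. The mean was 543 ± 192 TPM in CB (SD, n = 4) and 151 ± 99.7 outside (SD, n = 28), a ratio of 3.59. An exact two-sided permutation test over 35960 choices of 4 libraries gave p = 2.8e-05, the smallest it can give, and 0.00487 after Benjamini-Hochberg adjustment over all host genes. Its choices take all libraries as exchangeable, although they come grouped by region and pool. By this test, 5.55% of host genes were higher in CB at an unadjusted p under 0.01. The totals of the libraries ran from 107695 to 352188 TPM, with CB_10F the highest. At equal library totals the exact permutation p was 0.000167, so the 4 CB libraries no longer all lay above every other library. On the log2 scale, where 2.455 TPM was added to each value, limma gave a CB difference of 2.36 ± 0.76 (SE), and the adjusted p of 0.0684 missed the threshold of 0.05. On this scale the 2 libraries at 0, PFC_20F and CA1_10F, lay far below the other 26. With 10 TPM added in place of 2.455 TPM, the adjusted p by limma was 0.0126, and with 1 TPM added it was 0.145. At equal library totals the adjusted p by limma was 0.165, and without single pools it ran from 0.136 to 0.247. Without the 5 libraries, which held 17.7% of the INPP5A reads, the difference was 2.12 (adjusted p = 0.0776 by limma).

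The order of the regions for INPP5A after CB was TC (254 ± 35.6 TPM), PCC (226 ± 77.5), OC (219 ± 86.6), PC (122 ± 56), CA1 (117 ± 124), DG (66.8 ± 44.1) and PFC (52.9 ± 36.4, all SD, n = 4). On the deposited scale CB lay above TC in all libraries, with an exact permutation p = 0.0286, the smallest that 4 against 4 can give, and 0.2 after adjustment over the 7 neighbouring pairs. No other pair of neighbours in this order differed beyond its spread, with exact permutation p of 0.143 to 1. Neighbours by mean are the closest pairs, and regions further apart in the order were not compared by this test. On the deposited scale every TC library (201 TPM or more) lay above every PC, DG and PFC library. The highest of these were 176, 119 and 82.6 TPM. TC overlapped PCC, OC and CA1. The 2 hippocampal regions together had 92 ± 90.4 TPM (SD, n = 8) against 175 ± 95.1 in neocortex (SD, n = 20). By limma that difference was -1.32 ± 0.59 (SE) on the log2 scale, with an adjusted p = 0.352, and -1.44 (adjusted p = 0.275) without the 5 libraries.

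Nearly all INPP5A reads belonged to circINPP5A-1, an exonic circRNA on the plus strand whose back-splice sites lie 7420 bases apart. It had 4917 reads, 98.7% of its gene, and was present in 30 of 32 libraries, the widest presence of all members. Its level in CB was 786, 585, 433 and 301 TPM in 10F, 10M, 20F and 20M. Outside CB it ran from 0 to 312 TPM (median 121), so that the lowest CB library lay below the highest of the others. The exact permutation test gave p = 5.6e-05 and an adjusted p = 0.0126 over all kept circRNAs, with 3.2% of those higher in CB at an unadjusted p under 0.01. By limma the difference was 2.30 ± 0.76 (SE) with an adjusted p = 0.116.

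The longer circINPP5A-2 was seen in CB alone. It spans 89735 bases, starts upstream of circINPP5A-1 and ends at the same position. It had 5 reads (7.51 TPM) in CB_10M, 10 reads (10.9 TPM) in CB_20F and 19 reads (41.8 TPM) in CB_20M. It was listed at 0 in CB_10F and in all 28 libraries outside CB. Among the 52828 circRNAs, 43 were above 0 in at least 3 CB libraries and 0 in all others (0.0814%), a pattern singled out after its values were seen. The circRNA passed the filter only through its total of 34 reads, all of them in the group where it is high, so its level is a description and no test of CB is read from it. The 0 in CB_10F stands beside 42 reads of circINPP5A-1 there, against 137 to 399 in the other CB libraries.

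The share of INPP5A reads held by circINPP5A-1 differed among the CB libraries. It was 42 of 42 reads in CB_10F (100%, Wilson 95% interval 91.6 to 100%), 389 of 394 in CB_10M (98.7%, 97.1 to 99.5%), 399 of 414 in CB_20F (96.4%, 94.1 to 97.8%) and 137 of 156 in CB_20M (87.8%, 81.8 to 92.1%). These intervals cover counting error only, since amplified copies cannot be told from separate molecules. In CB_20M the rest was circINPP5A-2, at 12.2% (7.94 to 18.2%). Outside CB the share was 92.5 to 100%, and it was 100% in 22 of 26 libraries. The mean was 95.7% in CB and 99.2% outside, with an exact permutation p = 0.0329 that rose to 0.47 after adjustment over 822 host genes. Of these host genes 0% were called, and 73 had an unadjusted p under 0.05. Without pool 20M the difference of the means went from -3.49 to -0.962 percentage points (exact permutation p = 0.194).

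PLCB4, the phospholipase that makes inositol trisphosphate in Purkinje cells, was the only member gene whose total was called higher in CB by limma. Its summed level in CB was 74.9 TPM in 10F, 7.52 in 10M, 71.7 in 20F and 22 in 20M. Outside CB it ran from 0 to 30.2 TPM (median 3.65) and was 0 in 13 of 28 libraries, so the groups overlapped through CB_10M and CB_20M. The mean was 44 ± 34.3 TPM in CB (SD, n = 4) and 7.79 ± 10.2 outside (SD, n = 28), a ratio of 5.65. limma gave a difference of 2.45 ± 0.70 (SE) on the log2 scale with an adjusted p = 0.0348, where 2.82% of 5425 host genes were called higher and 2.3% lower. The exact permutation p was 0.00236, and 0.0759 after adjustment. The value in CB_10F stands for 4 reads. Without that library the log2 difference was 2.06 and the adjusted p by limma 0.189. Without pool 20F the adjusted p by limma was 0.272, and without pool 20M it was 0.114. Without the 5 libraries, which held 21.9% of the PLCB4 reads, the difference was 2.48 (adjusted p = 0.0214 by limma). The exact permutation p was 0.0189 without CB_10F, 0.0173 without pool 10F and 0.0287 without pool 20F.

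Reads of PLCB4 came from several circRNAs rather than from 1. The intronic circPLCB4-1 (chromosome 10, 42719898 to 42728267) had 265 reads in 16 libraries. In CB it had 4 reads in 10F, 0 in 10M, 25 in 20F and 3 in 20M. Its mean was 27.2 TPM in CB and 5.45 outside, with a log2 difference of 1.52 ± 0.73 (SE, adjusted p = 0.458 by limma). Without CB_10F the CB mean was 11.3 TPM (exact permutation p = 0.261), and without pool 10F the log2 difference was 0.70 (adjusted p = 0.842 by limma). The exonic circPLCB4-2 (42748032 to 42754933) had 86 reads in 6 libraries, of which 39 were in CB_20F and 7 in CB_20M. Its mean was 14.4 TPM in CB and 0.978 outside, with a difference of 1.5 ± 0.51 (SE, adjusted p = 0.14 by limma). This difference turned on single pools. It was 2.21 (adjusted p = 0.0259 by limma) without 10F, which holds the shallow CB library, but 0.60 (adjusted p = 0.873) without 20F and 1.18 (adjusted p = 0.763) without 20M. Without 20F the CB mean fell to 5.13 TPM. The exonic circPLCB4-3 (42783068 to 42783654) had 36 reads, 34 of them in the OC pools 10F and 20F. After CB, the PLCB4 total was highest in OC (18 ± 12.1 TPM), where all 4 libraries had reads, and lowest in DG (0.878 ± 1.76, SD, n = 4). No pair of neighbouring regions differed beyond its spread (exact permutation p of 0.286 to 1). Regions further apart in the order were not compared by this test.

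ITPR1, the calcium release channel opened by inositol trisphosphate, had circRNAs listed mainly in neocortex. Its total was above 0 in 12 of 20 neocortical libraries, 1 of 8 hippocampal libraries and 1 of 4 CB libraries. In CB it was 0 in 10F, 7.51 TPM in 10M, 0 in 20F and 0 in 20M. In PCC it was 0, 23.6, 24.1 and 32.8 TPM in the 4 pools, and in PC it was 0, 0, 22.8 and 39.6 TPM. In DG all 4 libraries were at 0, where the smallest value that could be listed was 1.76 to 12.03 TPM. Lower levels there would be missed. The CB difference was -0.73 ± 0.70 (SE, adjusted p = 0.74 by limma, log2 scale), and hippocampus minus neocortex was -1.41 ± 0.54 (SE, adjusted p = 0.264 by limma). Without the 5 libraries, which held 31.6% of the ITPR1 reads, these were -0.86 (adjusted p = 0.644 by limma) and -1.49 (adjusted p = 0.299 by limma).

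No ITPR1 circRNA dominated its gene. The circRNA with most reads, circITPR1-1 (chromosome 2, 56339802 to 56342617), had 86 reads in 9 libraries, with at most 31 reads in 1 library (PC_20M). The next, circITPR1-2 (56358927 to 56361570), had 79 reads, all in PCC_20F, 1 of the 5 libraries named above. circITPR1-3 (56303760 to 56319094) had 24 reads in PFC_10F and 6 in OC_20M. The other 5 had 3 to 19 reads each, and 4 of these 5 were seen in 1 library. None was called in any comparison.

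DAB1, the reelin adaptor, was listed at 0 in all 4 CB libraries. Outside CB its total was above 0 in 16 of 28 libraries, with a highest value of 53 TPM in CA1_20M. Of 5425 host genes, 23.6% were likewise at 0 in all CB libraries. The CB difference was -1.38 ± 0.67 (SE, adjusted p = 0.307 by limma, log2 scale), and -1.22 (adjusted p = 0.215) without the 5 libraries. In DG all 4 libraries had reads, with 18.1, 13.6, 16.4 and 8.78 TPM. CA1 had 12.2, 0, 0 and 53 TPM, and OC had 1.18 TPM in 10F and 0 in the others. The DAB1 total was 15.3 ± 16.7 TPM in hippocampus (SD, n = 8) and 5.52 ± 8.90 in neocortex (SD, n = 20). By limma this difference was 1.21 ± 0.52 (SE, adjusted p = 0.33), and 0.93 ± 0.45 (adjusted p = 0.389) without the 5 libraries.

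Those 5 libraries held 77.1% of the DAB1 reads, more than for any other member gene. circDAB1-1 (59928281 to 59938155) had 98 of its 141 reads in CA1_20M, and was also seen in 7 other libraries with 2 to 10 reads. circDAB1-2, the member with the longest span, had 97 of 104 reads in PCC_20F. circDAB1-3 (59900855 to 59901042), the member with the shortest span, had 54 of 58 reads in CA1_20M. The fourth, circDAB1-4, had 32 of 41 reads in CA1_20M as well. The other 4 had 2 to 14 reads.

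RORA circRNAs were seen in 7 of 20 neocortical libraries and in none of the 8 hippocampal or 4 CB libraries. In the shallow hippocampal libraries and in CB_10F low levels would not be listed. The total was 6.62, 8.08, 0 and 11.1 TPM in PFC and 0, 15.5, 9.49 and 0 TPM in OC. In PCC only 20M (32.8 TPM) and in PC only 10M (51.9 TPM) were above 0. The CB difference was -0.71 ± 0.64 (SE, adjusted p = 0.717 by limma, log2 scale), and -0.67 (adjusted p = 0.583) without the 5 libraries, which held 52.1% of the RORA reads. circRORA-1 (38919194 to 38920680) had 86 reads, all in PC_10M, 1 of the 5 libraries. circRORA-2 spans 149064 bases and had 62 reads spread over 5 libraries of PFC, PCC and OC, with 10 to 15 reads in each. circRORA-3 had 9 reads in PFC_20M and circRORA-4 had 8 in PFC_10F.

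CACNA1G, the T-type calcium channel, had 2 circRNAs on chromosome 16, each in 1 library. circCACNA1G-1 (34836735 to 34849836) had 12 reads in PFC_10M, and circCACNA1G-2 (34832440 to 34834064) had 3 reads in CB_10M. The gene total of 15 reads was under the 30 reads needed for a test across host genes.

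**Figure D2:**
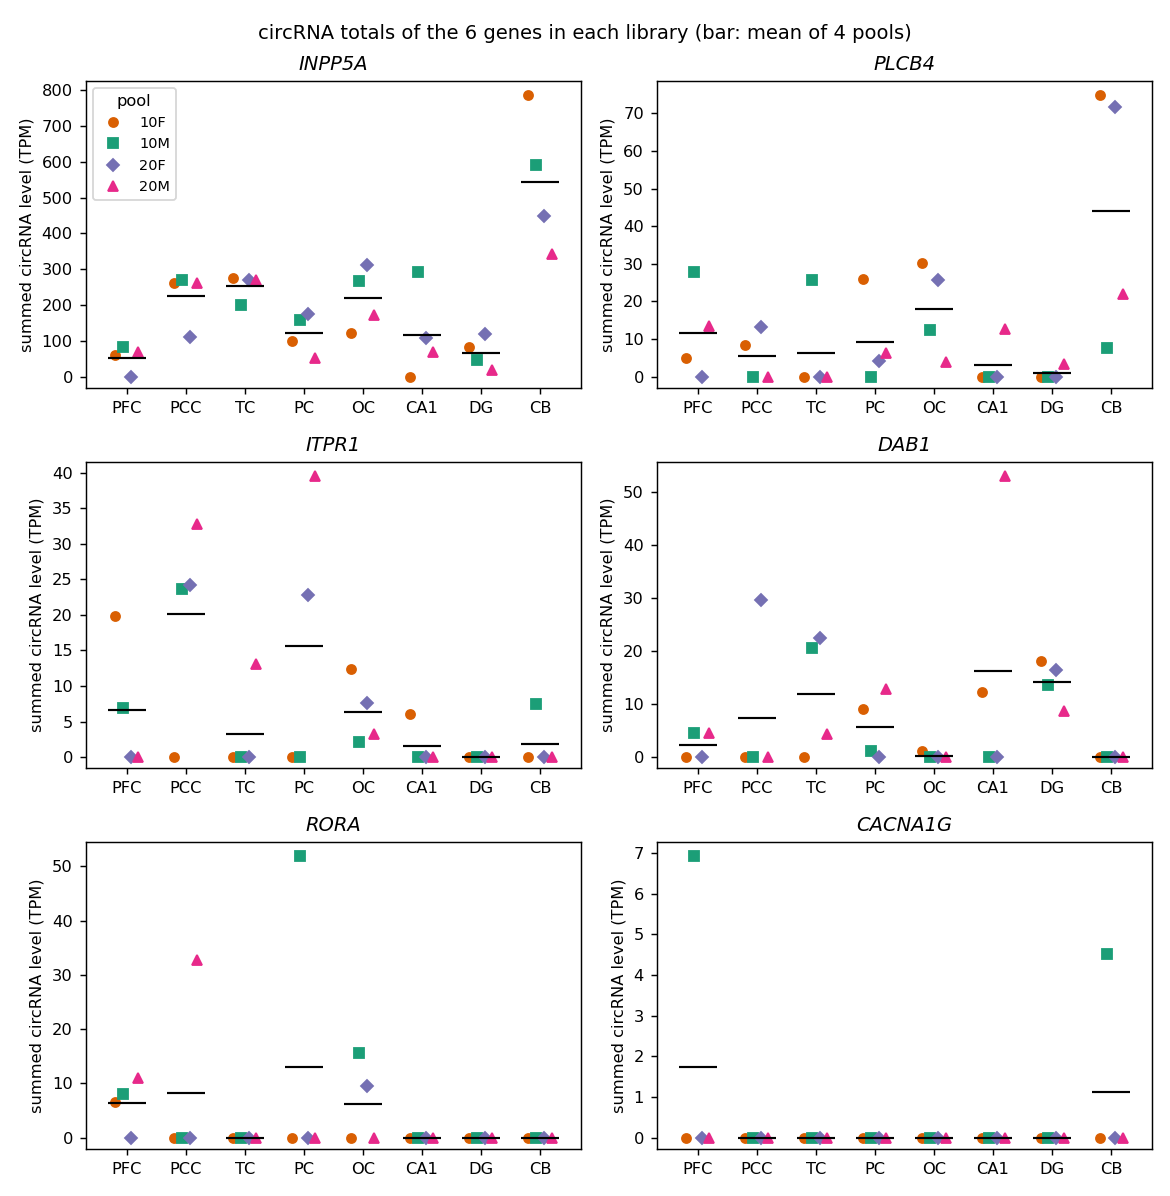
Summed circRNA level (TPM, linear axis that differs between panels) of the 6 genes in the 32 libraries, by region; symbols are the 4 pools and bars their mean. The 4 CB libraries of INPP5A sit between 343 and 786 TPM, above the 312 TPM of the highest other library, while DAB1 and RORA are at 0 in CB.

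Of the 14 kept member circRNAs, limma called circINPP5A-2 higher in CB, where 2.01% of 17050 circRNAs were called higher. Since circINPP5A-2 entered the 14 only through its reads in CB, nothing is read from that count. The others were not called, and 0.669% of circRNAs were called lower. By limma 4 of the 14, circINPP5A-2 among them, had a positive CB difference at an unadjusted p under 0.05, as had 1316 of the 17050 circRNAs. None of the 14 had a negative CB difference at an unadjusted p under 0.05 by limma, and voom also called 0 lower. Hippocampus and neocortex differed in none of the 14 by limma, where 0.416% of circRNAs were called, and 2 of the 14 had an unadjusted p under 0.05, against 7.68% of all kept circRNAs. Between 20 and 10 years 0 of the 14 were called (0.0293% of all), and between males and females 0 of the 14 (0% of all). For age and sex, none of the 14 had an unadjusted p under 0.05 by limma, and voom called none. Among the 5 gene totals tested, adjusted p by limma was 0.919 to 0.975 for age and 0.845 to 0.984 for sex, with 0% of 5425 host genes called in either. For hippocampus against neocortex, 0 of 5 totals were called by limma against 1.68% of host genes, and 4 of 5 had an unadjusted p under 0.05, against 12.2% of host genes. Of those 4, INPP5A, PLCB4 and ITPR1 had the higher mean in neocortex and DAB1 in hippocampus. In CB, 2 of 5 totals were higher (INPP5A and PLCB4) and 1 lower (DAB1) at an unadjusted p under 0.05 by limma. Of all host genes 15.8% had such a p in either direction.

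**Figure D3:**
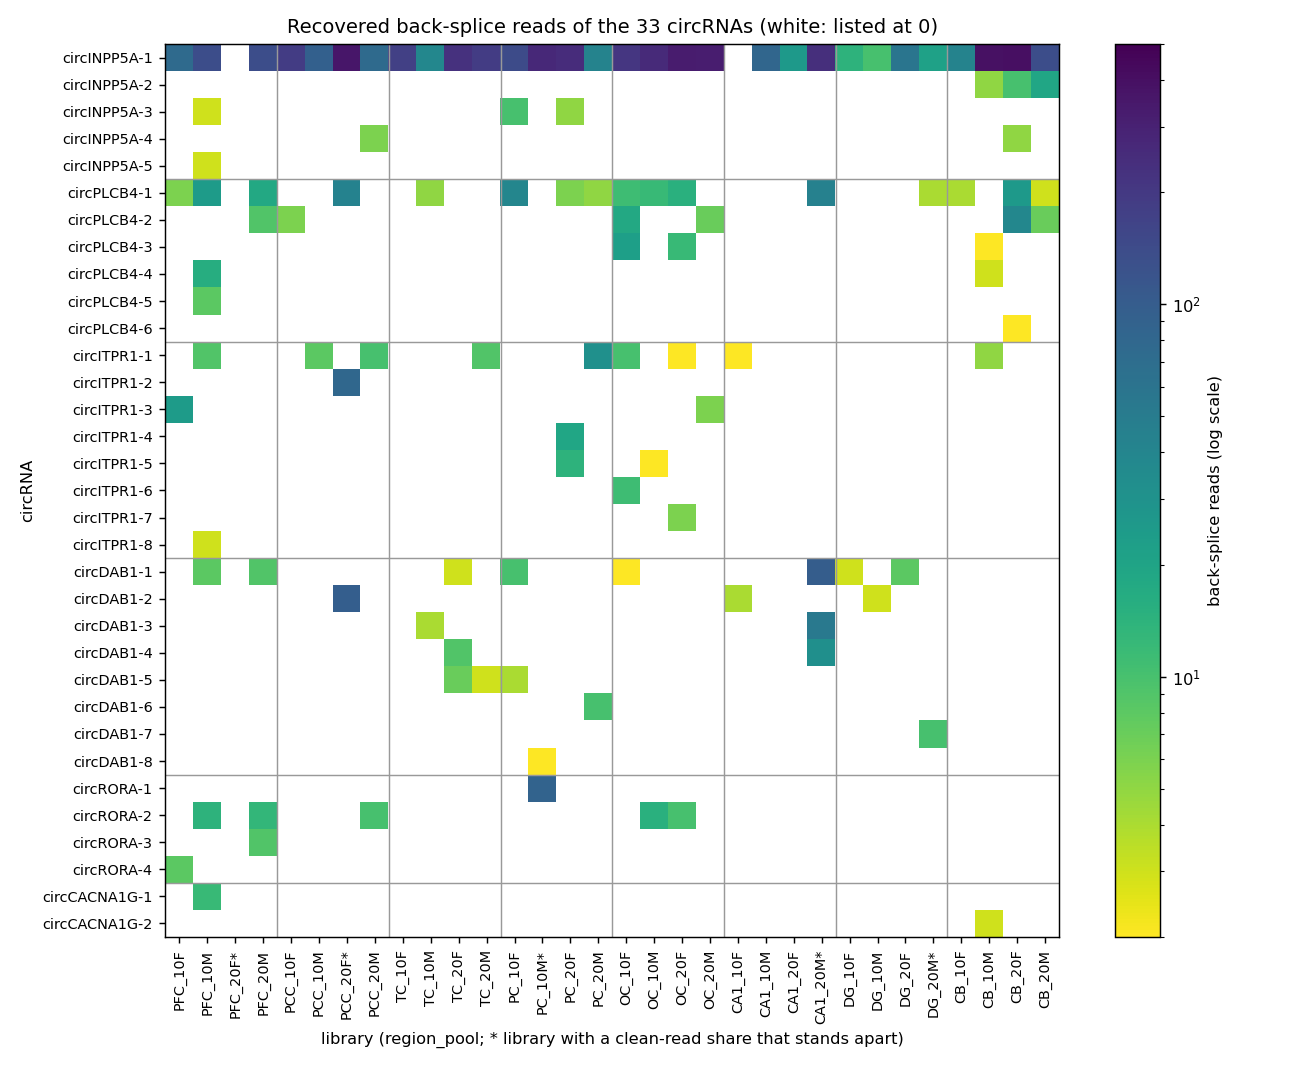
Back-splice reads of the 33 circRNAs (rows, grouped by gene) in the 32 libraries (columns, grouped by region), on a log colour scale from 2 reads on; white is listed at 0 and a star marks the 5 libraries with a clean-read share that stands apart. circINPP5A-1 fills 30 columns and circINPP5A-2 only 3 of the 4 CB columns, and the darkest cells of ITPR1, DAB1 and RORA stand in starred columns.

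The other genes of these pathways were described from 6 lists with 98 genes in all, of which 68 had a circRNA and 57 had the 30 reads needed for a test. Of the 57, 1 was called higher and 6 lower in CB by limma, against 2.82% and 2.3% of all host genes, with a median difference of -0.23 on the log2 scale against -0.07 over all host genes. In the list of Gq and inositol trisphosphate receptor signalling, 15 of 24 genes were tested, 0 were called higher and 2 lower. GRM5, a metabotropic glutamate receptor gene of forebrain neurons, was at 0 in all CB libraries and averaged 122 TPM outside (-5.49 ± 0.41 SE, adjusted p = 4.07e-11 by limma). PRKCA, a protein kinase C, averaged 3.55 TPM in CB and 50.3 TPM outside (-2.89 ± 0.76 SE, adjusted p = 0.0197 by limma). This call was lost without CB_10F (-2.56, adjusted p = 0.11 by limma) and without pools 10F (adjusted p = 0.114), 10M (0.263) or 20M (0.119). PRKCA was not called by voom either (adjusted p = 0.0654). CA8, an inhibitor of inositol trisphosphate binding to its receptor, averaged 12.9 TPM in CB and 2.19 TPM outside (adjusted p = 0.141 by limma), and its CB mean was 4.73 TPM without CB_10F, where it had 37.4 TPM. HOMER2, a postsynaptic scaffold of glutamate receptors, averaged 24.1 and 11 TPM (adjusted p = 0.202 by limma), with a CB mean of 19.7 TPM without CB_10F. PLCB1, the forebrain relative of PLCB4, averaged 3.7 TPM in CB and 32.6 TPM outside, which did not pass (adjusted p = 0.0952 by limma).

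The voltage-gated calcium channel list had 9 of 14 genes tested, with 1 called higher and 1 lower. CACNA1A, the P/Q-type channel of Purkinje cells, had 4905, 2985, 2553 and 2935 TPM in the CB pools, and no library outside CB exceeded 1858 TPM. Its difference was 2.04 ± 0.55 (SE, adjusted p = 0.0232 by limma). The call was lost without CB_10F (1.84, adjusted p = 0.113 by limma) and without pools 10F (adjusted p = 0.213), 10M (0.0854) or 20F (0.0655). CACNA1C, an L-type channel, was at 0 in all CB libraries and averaged 72.2 TPM outside (-4.67 ± 0.48 SE, adjusted p = 3.71e-08 by limma). CACNB2, an auxiliary subunit of such channels, averaged 91.8 TPM in CB and 69.7 TPM outside (adjusted p = 0.623 by limma). Its CB mean was 72.4 TPM without CB_10F.

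In the list of AMPA receptors and the parallel fibre synapse, 10 of 14 genes were tested, with 0 called higher and 1 lower. GRIP1, a scaffold of AMPA receptors, averaged 9.68 TPM in CB and 115 TPM outside (-3.32 ± 0.51 SE, adjusted p = 3.43e-05 by limma). GRIA1, an AMPA receptor subunit, averaged 1.65 and 25.6 TPM (adjusted p = 0.0952 by limma), and PTPN4, a tyrosine phosphatase, 178 and 97.9 TPM (adjusted p = 0.467 by limma). The CB mean of PTPN4 was 119 TPM without CB_10F, where it had 356 TPM.

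Inositol phosphate turnover had 9 of 18 genes tested, 0 called higher and 1 lower. The lower gene was SYNJ2, a phosphatase of inositol lipids, with a mean of 5.05 TPM in CB and 115 TPM outside (-3.57 ± 0.83 SE, adjusted p = 0.00699 by limma). It was not called without CB_10F (-3.09, adjusted p = 0.0613 by limma) and without pools 10M (adjusted p = 0.0949) or 20F (0.0979). SYNJ2 was not called by voom either (adjusted p = 0.079). Of the list of ROR receptors and Purkinje cell fate, 5 of 13 genes were tested and 1 was lower, THRB, a thyroid hormone receptor, with 48.5 TPM in CB and 274 TPM outside (-3.46 ± 0.57 SE, adjusted p = 0.000126 by limma). The CB mean of THRB was 14.8 TPM without CB_10F. NR1D2, a nuclear receptor that shares DNA sites with ROR proteins, averaged 32.6 and 17.6 TPM (adjusted p = 0.326 by limma). In the reelin and Dab1 list, 9 of 15 genes were tested and 0 were called in either direction, and LRP8, a reelin receptor, averaged 27.3 TPM in CB and 10.8 TPM outside (adjusted p = 0.421 by limma), with a CB mean of 15.1 TPM without CB_20M. RAPGEF1, an exchange factor downstream of DAB1, averaged 30.5 and 14.5 TPM (adjusted p = 0.667 by limma), with a CB mean of 15.7 TPM without CB_10F.

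Of the 7 list genes called, GRM5, CACNA1C, GRIP1 and THRB stayed called by limma without CB_10F and without each pool. Without the 5 libraries with a clean-read share that stands apart all 7 stayed called, with the highest adjusted p by limma at 0.0404 (PRKCA).

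**Figure D4:**
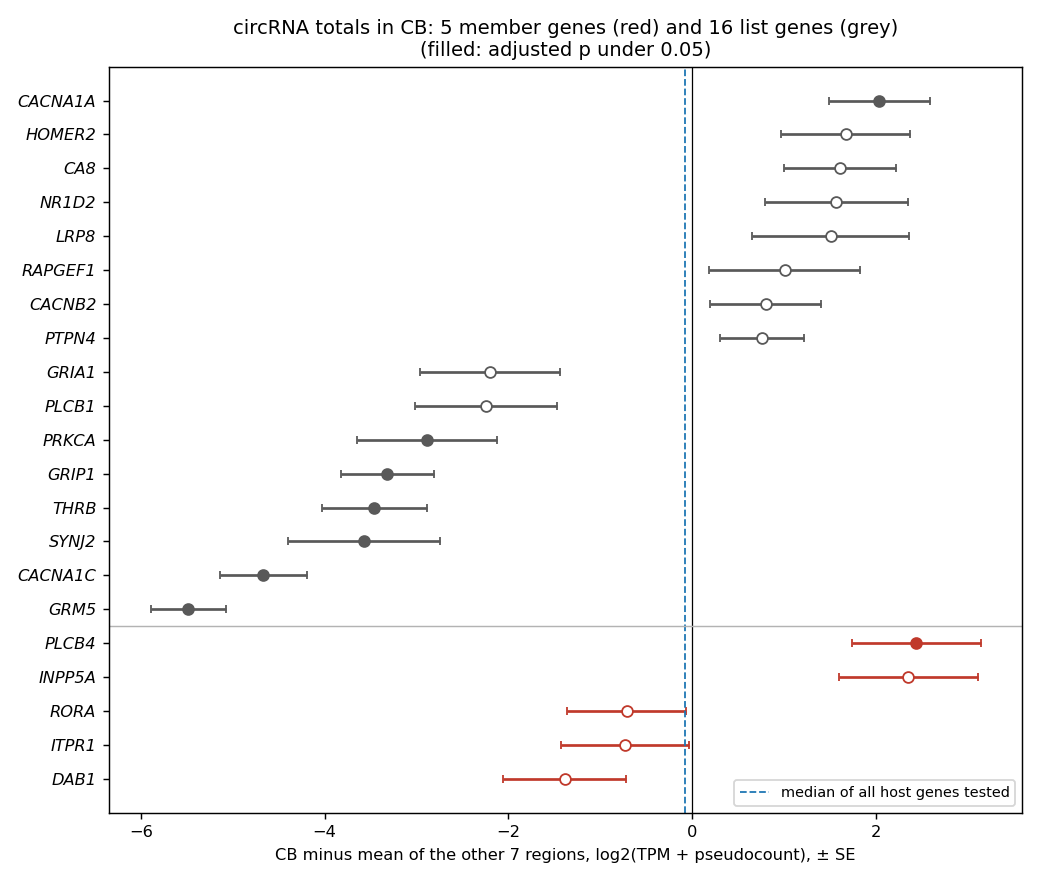
Difference in circRNA total between CB and the mean of the other 7 regions on the log2(TPM + 2.455) scale (points, with SE bars), for the 5 member genes tested (red) and 16 list genes (grey); filled points have an adjusted p under 0.05. PLCB4 at 2.45 is the filled member, INPP5A lies beside it at 2.36 with an open point, and the dashed line is the median of all host genes at -0.07.

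The likeness of host genes to the members was measured as Pearson's r of the log2 totals over the 32 libraries, among 925 host genes above 0 in at least 28 libraries, without a test. For INPP5A the nearest were STAG1 (r = 0.713), ATP8A2 (r = 0.673) and DCTN4 (r = 0.555). Over the 28 libraries outside CB these r were 0.703, 0.576 and 0.482. ATP8A2 averaged 476 TPM in CB and 95 TPM outside. For the other members, present in 7 to 19 libraries, no host gene reached an r of 0.6, and the nearest were PRKCZ, DDX17 and PHF21A for PLCB4, DROSHA, MAPK14 and ENSMMUG00000000884 for ITPR1, PPP1R9A, DTD1 and ST3GAL4 for DAB1, and RAB3GAP1, ADK and CTNNA2 for RORA. The points share library depth and the 4 pools, so these r are descriptions only.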

How the data were processed

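RNA of 8 macaques, pooled by 2, was treated with RNase R and sequenced. Per the labels and the methods of the study, the authors trimmed reads with cutadapt, mapped them with BWA and called back-splice junctions with CIRI2 from 2 reads on. The genome build is not given in the sources used here. The authors deposited TPM values, and all of them were within 0.1 of a whole number of reads times a constant per library.

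Samples were grouped by region and pool from their titles. Circular RNAs were kept that had at least 3 reads in 2 libraries of each of 2 regions, or of 1 region and in 6 libraries in all, or 30 reads in total. limma 3.58.1 (R 4.3.3) was run on log2(TPM + 2.455), the pseudocount being the median of the libraries' smallest values, with region as 8 means, or with region, age and sex. Host totals sum all circRNAs of a symbol with at least 30 reads. Values were adjusted over all features tested, with a threshold of 0.05. Exact permutation tests compared the 4 CB libraries with the other 28 in TPM. Tests were tried on simulated data. Differences on this log2 scale understate changes of low values.

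The members and the lists were chosen with earlier results of these data known. Named were all 6 genes, the 3 circRNAs with most reads of each and every called member, and of the lists up to 8 genes in each direction with the smallest adjusted p. Markers were fixed lists. Results for some genes of the lists are not reported here. Libraries of a pool share animals and pair across regions by design. Over 112 pairs of libraries of the same pool, deviations from the region means correlated with a median r of 0.027, against -0.0079 between pools. Alternatives were a replicate block, other pseudocounts, scalings and filters, voom, and fits without single pools or the 5 libraries. Sequences of the circRNAs were not used here. Python 3.11.15 with NumPy 2.4.6, pandas 2.3.3, SciPy 1.17.1 and Matplotlib 3.10.9 served for all else.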

Additional observations from a re-analysis of the deposited data

Results flagged for a closer look

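Totals of the 6 genes were screened within each region for a library whose gap to the nearest of the others, divided by the range of the 4, exceeded 0.829. Of 36 groups with unequal values 14 did. In 12 of the 14, 3 libraries were at 0 and 1 was above, which gives a ratio of 1 whatever the value. The usual rate of about 1 in 20 by chance therefore does not hold for these totals. For PLCB4 these single libraries had 25.73 TPM in TC, 12.68 in CA1 and 3.51 in DG. For ITPR1 they had 13.04 TPM in TC, 6.09 in CA1 and 7.51 in CB. For DAB1 they had 29.64 TPM in PCC (the library PCC_20F) and 1.18 in OC. For RORA they had 32.81 TPM in PCC and 51.88 in PC (the library PC_10M), and for CACNA1G 6.93 TPM in PFC and 4.51 in CB.

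The other 2 were low values of INPP5A. In PCC, pool 20F had 110.31 TPM while the other pools had 261 to 271 TPM, and PCC_20F is also 1 of the 5 libraries with a clean-read share that stands apart. In TC, pool 10M had 200.69 TPM while the others had 270 to 275 TPM. Neither value approaches the CB libraries.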

How the results depend on the processing

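Of 154 alternative values for the comparisons, 134 stayed on the same side of the threshold or, for counts, within 1.5 times. Among the 134 are counts of 0 that stayed 0. The tally therefore does not tell how firmly the PLCB4 total was called, which is described below. The count of member circRNAs higher in CB was 1 (circINPP5A-2, kept only through its CB reads), and it was 2 with a pseudocount of 10 TPM (circINPP5A-1 added), 2 with exact permutation p under 0.01, 0 among circRNAs above 0 in 16 libraries, which leaves out circINPP5A-2, and 1 to 2 without single pools (circPLCB4-2 added without 10F). The counts lower in CB and different by age or sex were 0 under all alternatives, leaving out pools included.

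For hippocampus against neocortex voom called 4 members higher, where it called 12.7% of all circRNAs higher and 0.569% lower, among them circINPP5A-2, which is 0 in all libraries of both. voom moved the median difference of all circRNAs there from -0.18 to 1.00, and in CB from -0.14 to 0.91. Of the 9 uncalled CB differences that changed sign, 8 did so by voom, at 0.88 (circITPR1-1), 0.99 (circITPR1-2), 0.87 (circITPR1-3), 0.17, 0.73 and 0.81 (circDAB1-1 to circDAB1-3), 0.92 (circRORA-1) and 0.26 (circRORA-2). Without single pools circITPR1-1 ran from -0.71 to 0.22 (20M) and circPLCB4-3 from -0.25 (10M) to 0.27. circITPR1-2 and circRORA-1 gave no value without their 1 library.

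The INPP5A total (2.36) was called only with a pseudocount of 10 TPM (2.14) and by voom (2.68), and without single pools ran from 2.01 to 2.53. By voom the median CB difference of all host genes also moved, from -0.07 to 0.755. Its ratio ran from 2.83 at equal library totals to 3.86 without pool 20M, and 2.91 to 3.86 without single pools. The PLCB4 total (2.45) was not called with a pseudocount of 1 TPM (3.06), at equal totals (2.21), by voom (2.90), over kept circRNAs alone (2.25), without CB_10F (2.06), or without pools 10F, 20F or 20M (1.98 to 3.05 over the 4 pools). With the replicate block by pool it stayed called (2.45, adjusted p = 0.0461 by limma), and the block changed no other call. Its ratio by the exact test was 5.65, and ran from 4.17 (20F) to 7.74 without single pools, with an exact permutation p over 0.01 without 10F or 20F and without CB_10F (ratio 4.33). The cause of these changes was not tested. Equal totals and the fit without CB_10F were chosen after seeing the data. The share of circINPP5A-1 differed by -5.01 to -0.96 percentage points without single pools, and lost an exact p under 0.05 without 20F (-3.57) or 20M (-0.96).

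Depth limits CB_10F most, where 1 read stands for 18.7 TPM.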

Other observations

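On the deposited scale the circRNA total of INPP5A in CB was higher in both 10-year pools (786 and 592 TPM) than in both 20-year pools (450 and 343 TPM). These totals stood for 42, 394, 414 and 156 reads in 10F, 10M, 20F and 20M. The 4 libraries held 18813, 176456, 176435 and 115177 back-splice reads. As a share of the reads of its library INPP5A was highest in 20F, so the order by age was not kept. A term for CB by age, added after the data were seen, gave a difference of -0.57 ± 1.56 (SE) on the log2 scale, with an adjusted p = 0.9997 by limma. It was called for 0 of 5425 host genes. With 2 pools at each age, the order of the 4 CB values is given as a description.

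Of the 8 ITPR1 circRNAs, 6 were listed on the minus strand and 2 on the plus strand, which were circITPR1-6 (56342559 to 56347431, 11 reads in OC_10F) and circITPR1-8 (56357923 to 56386847, 3 reads in PFC_10M). Among all circRNAs of host genes with at least 3 circRNAs, 1.39% were on the strand opposite to most of their gene. circITPR1-6 overlaps the end of circITPR1-1 on the other strand. The strand was taken as listed, and the assignment of these 2 circRNAs to ITPR1 was not tested.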
